A study of Mus musculus with 4 samples.

Results

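The Rtl1 antisense miRNAs are the mature products of 5 hairpins, miR-431, miR-433, miR-127, miR-434 and miR-136, that lie opposite the coding sequence of the imprinted gene Rtl1 on mouse chromosome 12. Both arms of each hairpin were taken by name from the deposited miRNA count table, which gave 10 members of 1900 names. Small RNA had been sequenced after RNA immunoprecipitation for Argonaute2 (AGO2), the Argonaute protein that is loaded with mature miRNAs and carries them to target RNAs, from the olfactory bulb of C57BL/6 mice. The GFP-AGO2 group (n = 2 libraries) came from mice given the viral vector LV.PGK.GFP-AGO2, in which the name PGK denotes a promoter that is active in many cell types. The Control group (n = 2 libraries) came from sham-injected mice, and tissue was taken 8 weeks after injection in both groups. The libraries held 673916 to 2809758 miRNA counts. Nothing in the labels assigns the libraries of 1 group to separate mice. P-values therefore reflect the spread between these libraries alone, and part or all of it may be technical. Neither the antibody nor the site of injection is named in the labels, so each change is relative to whatever RNA the sham libraries hold.

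In the Dlk1-Dio3 domain the protein genes, Rtl1 among them, are expressed from the paternal chromosome, while the long non-coding RNAs and the miRNAs are expressed from the maternal chromosome. Because the Rtl1 antisense miRNAs are transcribed from the strand opposite Rtl1, each is fully complementary to the Rtl1 transcript, and they are known to direct its cleavage. Rtl1 derives from a retrotransposon and is best known for its part in placental development. The miRNAs of the domain are abundant in brain and in neurons. A hairpin yields a 5p and a 3p arm, of which usually 1 is kept by Argonaute and the other is largely discarded.

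The mature sequences are shown because they set which RNAs each arm can pair with. They are RefSeq's for GRCm38.p6, all 10 members were matched at the positions the count table gives (mm10), and capitals mark the seed, bases 2 to 8 from the 5′ end.
mmu-miR-431-5p: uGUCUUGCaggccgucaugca
mmu-miR-431-3p: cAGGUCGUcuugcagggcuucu
mmu-miR-433-5p: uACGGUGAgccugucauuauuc
mmu-miR-433-3p: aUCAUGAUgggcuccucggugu
mmu-miR-127-5p: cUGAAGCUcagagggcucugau
mmu-miR-127-3p: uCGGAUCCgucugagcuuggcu
mmu-miR-434-5p: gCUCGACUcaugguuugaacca
mmu-miR-434-3p: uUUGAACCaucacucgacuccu
mmu-miR-136-5p: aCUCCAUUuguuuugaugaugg
mmu-miR-136-3p: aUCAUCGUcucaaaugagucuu
The 10 members carried 10 different seeds, and no other mature miRNA of the RefSeq table shared the seed of any of them. They therefore form a genomic group and not a seed family.

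The hairpins occupy 4.94 kb of the plus strand (mm10). In genome order they are miR-431 at 109590447 to 109590537, miR-433 at 109591715 to 109591838, miR-127 at 109592846 to 109592915, miR-434 at 109594506 to 109594599 and miR-136 at 109595327 to 109595388. Rtl1 is annotated on the minus strand at 109589193 to 109600330 (GENCODE M21), and all 10 mature sequences lie opposite its coding sequence. Each had 1 perfect complementary site in the Rtl1 transcript. Counted from the first base of the start codon, the sites run from coding bases 17 to 38 for miR-136-3p to coding bases 4925 to 4945 for miR-431-5p. The site of miR-127-3p, at coding bases 2495 to 2516, is printed as an example of this full complementarity, with the bases opposite the seed in capitals.
Rtl1 site of miR-127-3p: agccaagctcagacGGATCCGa
The counting command carries no strand option, so a short read from the Rtl1 strand at these positions would have been counted under the same names.

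MiR-127-3p was the most abundant of the 8 tested members in every library, and fell after GFP-AGO2, while miR-431-5p, miR-433-3p and miR-434-3p rose. Of the 8 members that passed the filter on low counts, 3 rose and 2 fell in edgeR's quasi-likelihood test at a Benjamini-Hochberg adjusted p under 0.05. The same test called 34.4% of all 457 tested names, 17.3% higher and 17.1% lower. The median log2 fold change was 0.65 over the 8 tested members and -0.01 over all tested names. MiR-433-5p was over the filter's cut-off in both GFP-AGO2 libraries but in only 1 Control library, and would not have passed on the Control libraries alone. The tested members are therefore not an even-handed sample of the 10. The libraries hold RNA precipitated from bulk tissue, so a level here is not the level in the tissue. Fewer cells of a type, less of a miRNA per cell and a different recovery in the immunoprecipitation cannot be told apart. Levels are given as CPM, the count divided by the library total after scaling by edgeR's TMM method, times a fixed factor. The mature sequences are 21 or 22 bases long, so levels of different members were compared without a length correction.

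MiR-127-3p belongs to the best studied hairpin of the group, whose loss is known to alter the placenta. It had 25230 and 24614 CPM in Control replicates 1 and 3 against 16831 and 16510 CPM in GFP-AGO2 replicates 1 and 3. Both GFP-AGO2 libraries lay below both Control libraries, and the gap was larger than the spread within either group. The mean was 24922 ± 435.5 CPM in Control and 16671 ± 227 CPM in GFP-AGO2 (SD, n = 2 each), a log2 fold change of -0.58 (SE 0.11, edgeR adjusted p = 0.0138). It ranked 11th of all names by mean CPM in Control and 14th in GFP-AGO2. Its partner miR-127-5p had 435.6 and 363.2 CPM in the Control libraries against 240.0 and 275.3 CPM in the GFP-AGO2 libraries. It fell by 0.64 on the log2 scale (SE 0.18, edgeR adjusted p = 0.0452), so that both arms of this hairpin were lower by a similar factor. Scaling by total counts alone moved the median of all names by 0.215 on the log2 scale; miR-127-3p then had -0.365 and miR-127-5p -0.42, and neither was called. With no filter they had -0.34 and -0.40, again not called. With replicate number added to the model, miR-127-3p kept -0.58 but was not called (edgeR adjusted p = 0.0509). Neither was called without Control replicate 1 (-0.51 and -0.44) or without Control replicate 3 (-0.64 and -0.80), and miR-127-5p was not called without GFP-AGO2 replicate 1 (-0.54). MiR-127-5p also missed the threshold without names of several positions (edgeR adjusted p = 0.0508) and without the miR-200 and miR-183 names (edgeR adjusted p = 0.0616).

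MiR-433-3p was the second most abundant tested member. It had 4547 and 4243 CPM in the Control libraries against 7099 and 7600 CPM in the GFP-AGO2 libraries. Both GFP-AGO2 libraries were above both Control libraries, and the log2 fold change was 0.74 (SE 0.13, edgeR adjusted p = 0.0097), a 1.67-fold rise. Without Control replicate 1 it had 0.85 and without Control replicate 3 it had 0.65, and it was not called in either case. MiR-433-5p, the rare arm, rested on 4 and 10 counts in Control against 120 and 41 in GFP-AGO2. The exact 95% Poisson intervals of the Control counts were 1.09 to 10.2 and 4.79 to 18.4, and those intervals cover counting error only. At 4.16 and 16.5 CPM against 40.4 and 20.1 CPM, the lower GFP-AGO2 library lay just above the higher Control library. Its log2 fold change of 1.65 (SE 0.75) was not called (edgeR adjusted p = 0.146). It was 0.95 without Control replicate 1, 2.83 without Control replicate 3, 1.05 without GFP-AGO2 replicate 1 and, called, 2.07 without GFP-AGO2 replicate 3. It was also called with no filter (1.90).

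MiR-434-3p had the largest rise among the abundant members. Its levels were 1659 and 1578 CPM in the Control libraries against 4343 and 3949 CPM in the GFP-AGO2 libraries, a clear separation of the groups. The means of 1619 ± 57.2 and 4146 ± 278 CPM (SD, n = 2 each) gave a log2 fold change of 1.36 (SE 0.14, edgeR adjusted p = 0.00353), or 2.56-fold. MiR-434-5p had 726.6 and 602.6 CPM in Control against 928.8 and 1022 CPM in GFP-AGO2. These groups did not overlap either, but the log2 fold change of 0.55 (SE 0.16) missed the threshold (edgeR adjusted p = 0.0524). It was called with total counts alone (0.76), with DESeq2 (0.55), with no filter (0.79) and without GFP-AGO2 replicate 1 (0.62).

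MiR-431 is known for its reported role in axon regrowth of sensory neurons. Its 5p arm had the largest fold change of the tested members. There were 9 and 6 counts of miR-431-5p in Control against 185 and 93 in GFP-AGO2, or 9.36 and 9.9 CPM against 62.3 and 45.6 CPM. The Control level was low but alike in both libraries, with exact 95% Poisson intervals of 4.12 to 17.1 and 2.2 to 13.1 counts. The log2 fold change was 2.48 (SE 0.39, edgeR adjusted p = 0.00778), or 5.6-fold. MiR-431-3p, the more abundant arm, had 149.7 and 143.6 CPM in Control against 137.6 and 129.5 CPM in GFP-AGO2. Its log2 fold change of -0.14 (SE 0.18, edgeR adjusted p = 0.6) was not called, and the sign turned with total counts alone (0.08).

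**Figure D1:**
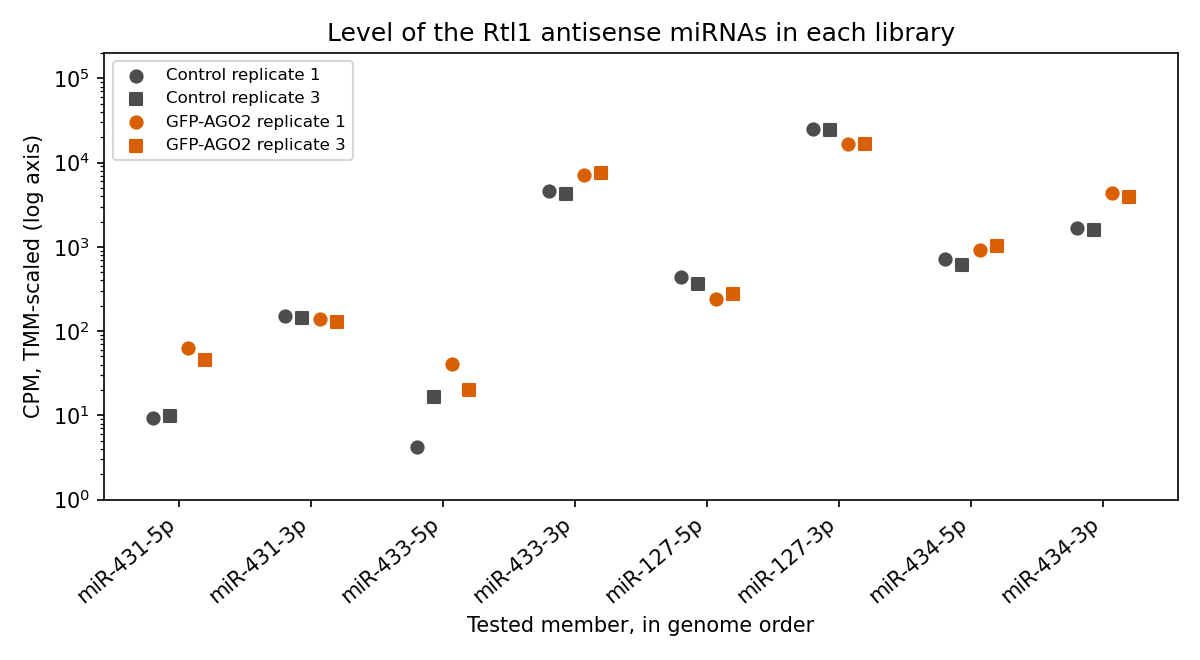
Level of each tested member in the 4 libraries, as TMM-scaled CPM on a log axis; points are single libraries, grey for Control and orange for GFP-AGO2, circles replicate 1 and squares replicate 3. MiR-127-3p is highest in every library and lower in both GFP-AGO2 libraries (16831 and 16510 CPM) than in both Control libraries (25230 and 24614 CPM), while miR-431-5p and miR-434-3p are higher.

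**Figure D2:**
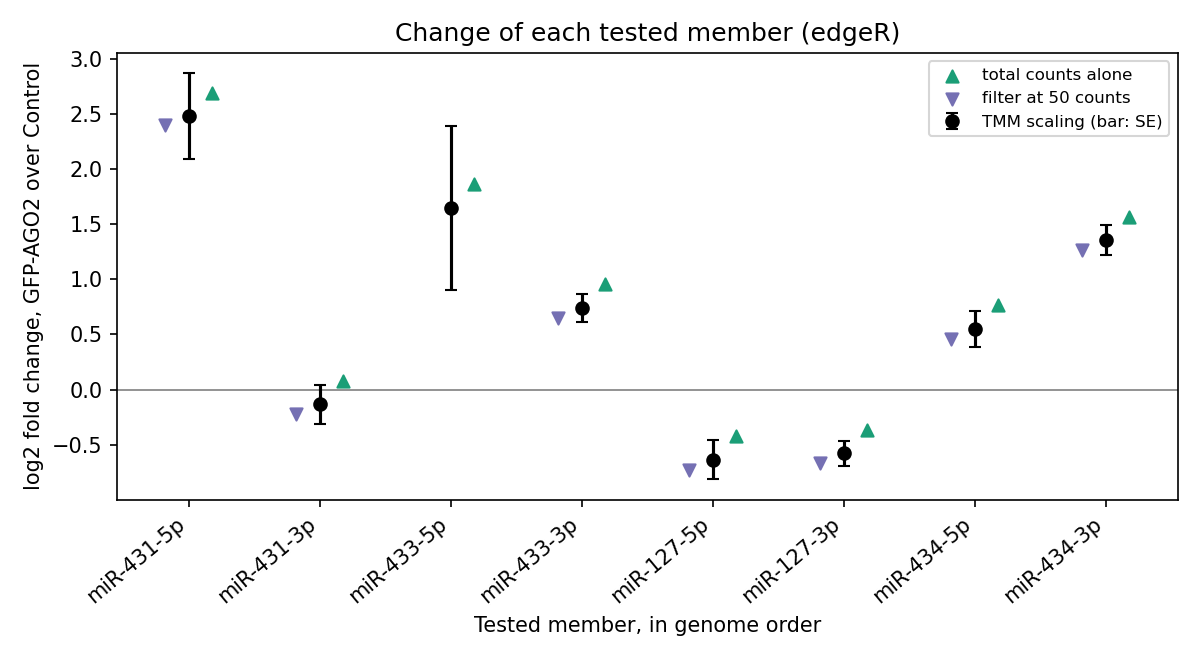
Log2 fold change of each tested member, GFP-AGO2 over Control, from edgeR; black points with SE bars use TMM scaling, triangles pointing up total counts alone and triangles pointing down the filter at 50 counts, which miR-433-5p did not pass. Values run from -0.64 for miR-127-5p to 2.48 for miR-431-5p, and scaling by total counts moves all points up, taking miR-431-3p across 0.

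All 8 tested members had groups that did not overlap in CPM. In 5 of them both GFP-AGO2 libraries were above both Control libraries, as in 36.8% of all tested names, and in 3 both were below, as in 35.2%. The 5 include miR-433-5p, which was over the filter's cut-off in only 1 Control library, so the filter favoured its side. A separation of this kind was thus common across the table. The calls of miR-431-5p and miR-434-3p held under each of the 12 alternatives that were run, with log2 fold changes of 2.24 to 2.73 and 1.27 to 1.60.

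MiR-136 could not be assessed. MiR-136-5p had 0 counts in each library, and miR-136-3p had 1 and 6 counts in Control against 1 and 0 in GFP-AGO2. On the opposite strand the annotation holds miR-3071, whose arms cover those of miR-136. The sequences are shown to make this overlap visible, with the shared positions in capitals, 20 bases for the 5p arm and 19 for the 3p arm.
mmu-miR-136-5p: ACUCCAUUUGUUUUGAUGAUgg
miR-3071-3p: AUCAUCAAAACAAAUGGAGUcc
mmu-miR-136-3p: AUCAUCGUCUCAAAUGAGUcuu
miR-3071-5p: ACUCAUUUGAGACGAUGAUgga
MiR-3071-3p had 3 counts in Control replicate 1 and 0 in the other libraries, and miR-3071-5p had 0 in all. The counting command has no option to keep reads that overlap more than 1 name, and featureCounts then leaves such reads out. The zeros of miR-136 are therefore listed values and say nothing of whether the miRNA was present. None of the other 8 members overlaps another name that has a single position. Names with several positions were not checked for overlap.

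The members' summed share of the libraries was close in both groups, while its make-up was not. Reads of miR-136 that overlap miR-3071 were left out, so they are missing from this sum and from the shares below. The 10 members took 3.13% and 2.84% of all miRNA counts in the Control libraries (exact 95% intervals 3.1 to 3.16 and 2.8 to 2.88) against 3.14% and 3.24% in the GFP-AGO2 libraries (3.12 to 3.16 and 3.21 to 3.27). The means differed by 0.205 percentage points, which was no larger than the SD of 0.206 within Control, and the exact permutation test gave p = 0.333, the smallest it can give with 2 libraries against 2. With miR-200 and miR-183 family counts left out of the denominator, the difference turned to -0.591 points, and without let-7 5p arms it was 1.14 points. The first of these groups is typical of epithelial and sensory cells. The 10 names of the epithelial and sensory marker list, none of them at 0, together took 23.5% and 23% of the counts in Control against 2.57% and 5.01% in GFP-AGO2, and 8 of its 9 tested names fell. The vessel, blood and immune list, of which 12 of 13 names were in the table, took 0.489% and 0.357% in Control against 0.036% and 0.169% in GFP-AGO2. Of that list, 3 of 5 tested names fell, and miR-126a-3p, miR-126a-5p and miR-142-3p were listed at 0. The 9 neuronal markers took 1.57% and 1.79% in Control against 2.21% and 1.99% in GFP-AGO2, with 2 called higher and 1 lower. Over all 457 tested names the same test called 17.3% higher and 17.1% lower, and the neuronal counts did not stand out from these shares. The 3 muscle names took 0.0113% to 0.017% in Control against 0.00338% to 0.00705% in GFP-AGO2, where 1 of 2 tested names was lower. The 4 oligodendrocyte names were listed at 0 in all libraries. Overlap with other names was not examined for the markers, so a listing at 0 does not show that a marker was absent. The part of these cell types in the members' changes was not tested.

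Within the group, miR-127-3p took 77.0% and 77.9% of the members' counts in the Control libraries against 56.7% and 55.9% in the GFP-AGO2 libraries. The difference of -21.2 percentage points was many times the SD within either group (0.658 and 0.591; exact permutation p = 0.333, the smallest possible). MiR-433-3p took 13.9% and 13.4% in Control against 23.9% and 25.7% in GFP-AGO2. MiR-434-3p went from 5.06% and 5% to 14.6% and 13.4%. The other 9 members summed to 0.673% ± 0.0661 of all miRNA counts in Control against 1.4% ± 0.0503 in GFP-AGO2 (SD, n = 2 each).

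**Figure D3:**
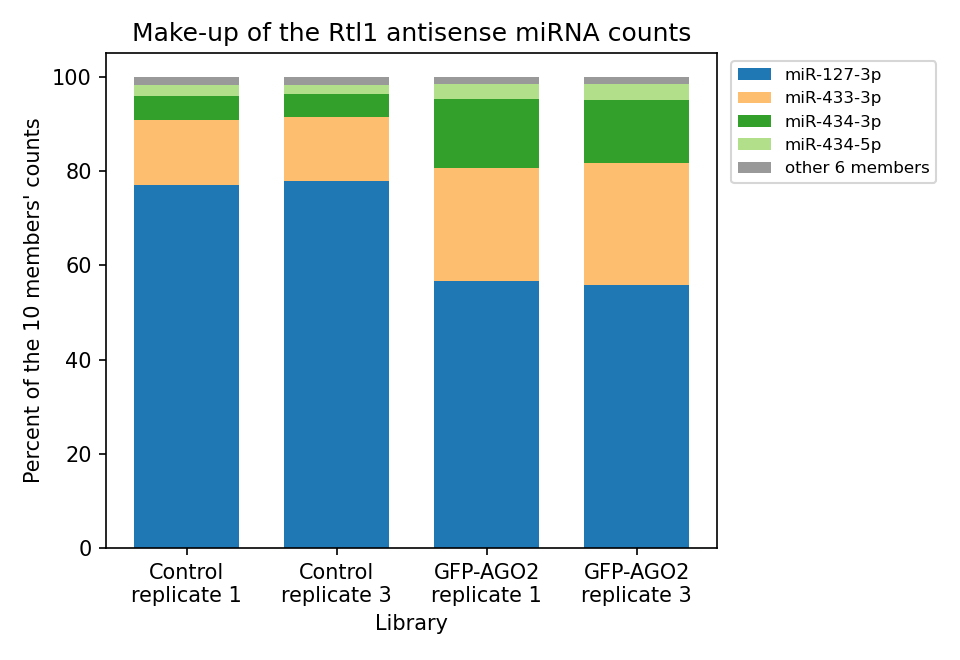
Percent of the 10 members' counts taken by each of the 4 members with the most counts and by the other 6 together, 1 stacked bar per library. The other 6 include miR-136, which could not be assessed. MiR-127-3p takes 77.0% and 77.9% of the bars of the Control libraries and 56.7% and 55.9% of those of GFP-AGO2, with miR-433-3p and miR-434-3p filling most of the difference.

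Whether members changed by different amounts was tested without any library scaling, as the ratio of each name to miR-127-3p within a library. MiR-434-3p had 6.58% and 6.41% of the miR-127-3p count in Control against 25.8% and 23.9% in GFP-AGO2, a 3.8-fold higher ratio (log2 1.94, SE 0.13, limma adjusted p = 0.000796). The ratio of miR-433-3p went from 18% and 17.2% to 42.2% and 46%, a 2.5-fold change (log2 1.32, SE 0.12, limma adjusted p = 0.00158). The 2 hairpins on either side of miR-127, within a few kilobases on the same strand, thus gained on it in both GFP-AGO2 libraries. MiR-434-5p had 2.88% and 2.45% against 5.52% and 6.19% (log2 1.14, SE 0.16, limma adjusted p = 0.00413). MiR-431-5p had 0.0371% and 0.0402% against 0.37% and 0.276% (log2 2.96, SE 0.36, limma adjusted p = 0.003). The ratios of miR-433-5p (2.25, SE 0.78, limma adjusted p = 0.063), miR-431-3p (0.44, SE 0.18, limma adjusted p = 0.104) and miR-127-5p (-0.05, SE 0.18, limma adjusted p = 0.835) were not called. Of the 7 tested members besides miR-127-3p, 4 were called higher relative to it by limma and 0 lower. At an unadjusted p under 0.05 there were 5 higher, miR-433-5p being added, and 0 lower. No share of all names is given at that looser threshold, and miR-433-5p passed the filter through its GFP-AGO2 libraries, so nothing is drawn from this count. Of all 456 names in this fit 46.7% were called, 35.1% higher and 11.6% lower, all against the same denominator. None of the 4 calls was lost under the 7 alternatives that were run.

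The arm ratio changed in 2 of the 4 hairpins with both arms tested, in opposite directions. The 5p arm of miR-431 made up 5.88% and 6.45% of the hairpin's counts in the Control libraries (exact 95% intervals 2.73 to 10.9 and 2.4 to 13.5) against 31.1% and 26.1% in the GFP-AGO2 libraries (27.4 to 35 and 21.6 to 30.9). The ratio of 5p to 3p was 5.73-fold higher (log2 2.52, SE 0.40, limma adjusted p = 0.0237), the third largest rise among the 109 hairpins tested. The 5p arm of miR-434 made up 30.5% and 27.6% in Control against 17.6% and 20.6% in GFP-AGO2. Its ratio of 5p to 3p fell by 0.80 on the log2 scale (SE 0.19, limma adjusted p = 0.0468), the 3p arm gaining 1.74-fold on the 5p arm. In both cases the GFP-AGO2 libraries lay on 1 side of both Control libraries. With replicate number added to the model, neither was called (limma adjusted p = 0.0671 for miR-431 and 0.0672 for miR-434). The fit called 18.3% of all 109 hairpins, 6.42% higher and 11.9% lower.

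The hairpins whose arm ratio changed are printed for reference, with the mature arms in capitals.
miR-431 hairpin: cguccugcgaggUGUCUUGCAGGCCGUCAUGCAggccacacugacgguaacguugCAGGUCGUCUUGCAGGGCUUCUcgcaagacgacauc
miR-434 hairpin: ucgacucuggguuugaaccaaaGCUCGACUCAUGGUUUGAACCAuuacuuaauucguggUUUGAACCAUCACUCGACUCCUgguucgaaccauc
In both, the arm that gained on its partner begins with U, the other with C in miR-431 and with G in miR-434, which was seen after the values were known. MiR-127, whose arms begin with C and U, had an arm ratio that was not called, with a 5p share of 1.7% and 1.45% in Control against 1.41% and 1.64% in GFP-AGO2 (log2 -0.05, SE 0.16, limma adjusted p = 0.87). The arms of miR-433 begin with U (5p) and A (3p), and its arm ratio was not called either. Its 5p share was 0.0914% and 0.388% against 0.566% and 0.264%, so that the groups overlapped (log2 0.93, SE 0.77, limma adjusted p = 0.454). The value for miR-433 depended on single libraries: it was -0.06 without Control replicate 1, 0.39 without GFP-AGO2 replicate 1, and 1.93 and called without Control replicate 3. The calls for miR-431 and miR-434 were lost without GFP-AGO2 replicate 1 (2.34 and -0.66) and were likewise lost when replicate 3 of that group was left out (2.70 and -0.94). In those fits 1 and 3 of the 109 hairpins were called in all.

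**Figure D4:**
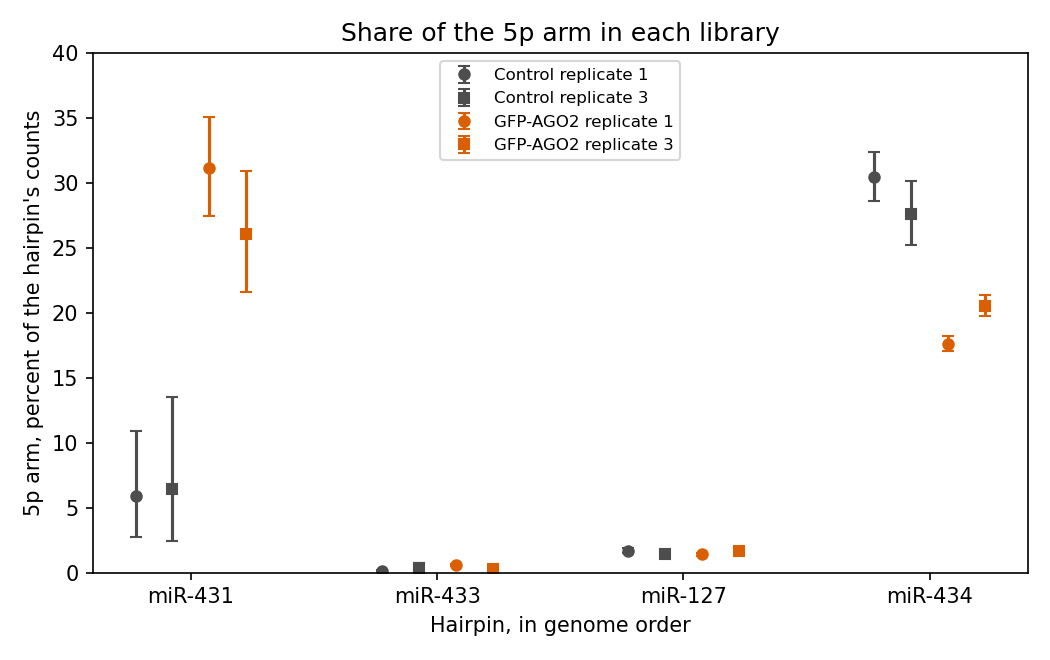
Share of the 5p arm in the counts of each hairpin, in percent; points are single libraries, grey for Control and orange for GFP-AGO2, and bars exact 95% binomial intervals, which cover counting error only. The 5p share of miR-431 is 31.1% and 26.1% in GFP-AGO2 against 5.88% and 6.45% in Control, that of miR-434 is lower in GFP-AGO2, and the points of miR-433 and miR-127 overlap between groups.

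The other names of the Dlk1-Dio3 locus, 105 names within 0.2 Mb of a member, were used only to place the group. Of these 54 were tested, of which 18 rose, 4 fell and 32 were not called, with a median log2 fold change of 0.93. Over all 457 tested names 17.3% rose and 17.1% fell, with a median of -0.01. By mean CPM over all 4 libraries the most abundant of them were miR-543-3p and miR-541-5p, though miR-379-5p (mean 1635 CPM) was above miR-543-3p in Control. MiR-541-5p was at 3767 ± 88.4 CPM in Control against 2432 ± 233 CPM after GFP-AGO2 (log2 fold change -0.63, SE 0.14, edgeR adjusted p = 0.0207), and miR-543-3p was at 1236 ± 20.4 against 5023 ± 555 CPM (SD over the 2 libraries, log2 fold change 2.02, SE 0.15, edgeR adjusted p = 0.00249). Both directions seen among the Rtl1 antisense miRNAs were thus present in the rest of the locus too, where rises were called more often than falls. The 10 members took 67.0% and 66.2% of the locus' counts in the Control libraries against 52.4% and 54.4% in the GFP-AGO2 libraries (difference -13.2 percentage points, exact permutation p = 0.333, the smallest possible). Without miR-127-3p in either term the share was 31.0% in Control against 33.4% in GFP-AGO2, a difference of 2.39 points in the other direction.

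**Figure D5:**
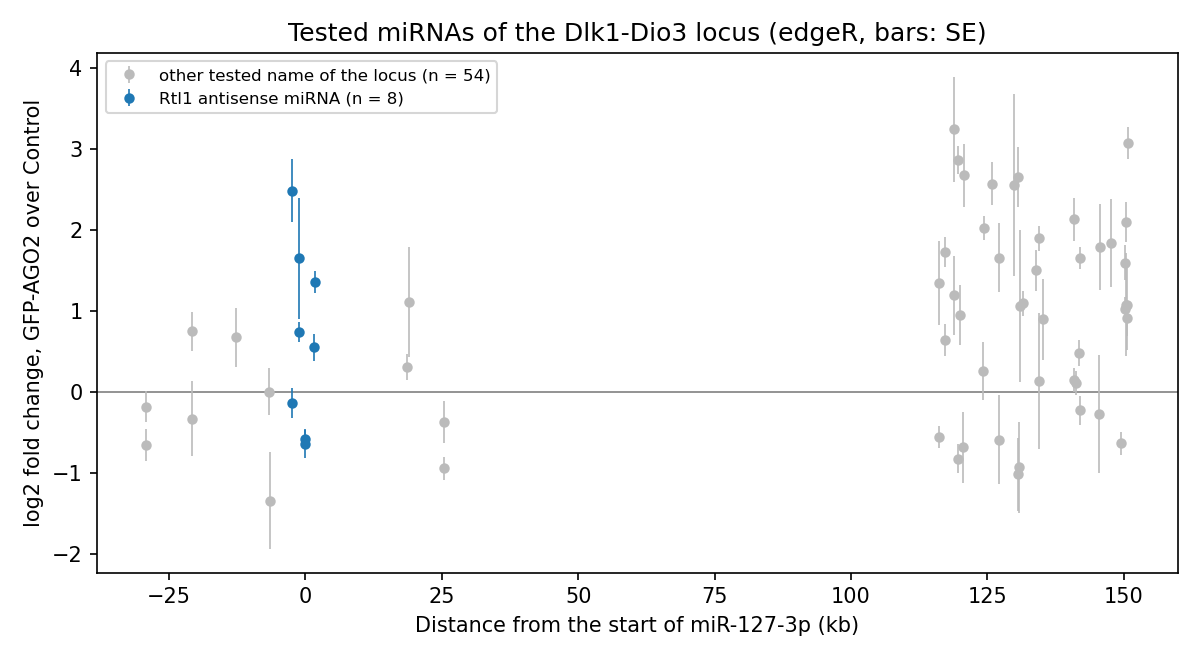
Log2 fold change (edgeR, bars: SE) of the tested names of the Dlk1-Dio3 locus against the distance from the start of miR-127-3p in kb; blue points are the 8 tested Rtl1 antisense miRNAs and grey points the 54 other tested names. The members lie close together but spread from -0.64 to 2.48.

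The names most like miR-127-3p over the 4 libraries, by Euclidean distance between log2 CPM values centred on each name's mean, were miR-379-5p (distance 0.1), miR-598-3p (0.11) and miR-181a-5p (0.13). MiR-379-5p, of the same locus, had 1594 and 1676 CPM in Control against 1090 and 1138 CPM in GFP-AGO2. MiR-598-3p, from chromosome 14, had 217.3 and 222.9 against 152.1 and 158.0 CPM. MiR-181a-5p, which has 2 genomic positions, had 28128 and 29117 against 20752 and 20755 CPM. The Rtl1 antisense miRNAs themselves were left out of this ranking, which rests on 4 libraries and is a description.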

How the data were processed

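Small RNA libraries from AGO2 immunoprecipitates of 2 GFP-AGO2 and 2 Control samples were compared. The counts, deposited as whole numbers for each mature name, were made per the file headers with featureCounts 1.4.6-p1 on primary alignments over a miRBase annotation for mm10, with no strand option. Cutadapt and STAR are named, without versions, in the submitters' processing notes. The members and lists were chosen with earlier results of these data known.

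The main test was that of edgeR 4.0.16 in R 4.3.3 (quasi-likelihood F test, TMM scaling, filterByExpr at 10 counts, 457 of 1900 names kept), two-sided, with Benjamini-Hochberg adjustment over all names and a threshold of 0.05. SE is the log2 fold change divided by the root of F. Ratios to miR-127-3p (456 names) and of 5p to 3p arms (109 hairpins with both arms kept) were tested with limma 3.58.1 on log2 ratios of counts plus 0.5, with a mean-variance trend. Shares were compared by exact two-sided permutation tests. DESeq2 1.42.0 was an alternative. Intervals are exact at 95%, cover counting error only, and count PCR copies as reads. The tests were run on simulated counts in which miR-127-3p was left unchanged, so the ratio test was not checked with a changed denominator. Libraries of a group differed by far more than sampling noise (Control, chi-square 4564 with 383 degrees of freedom; GFP-AGO2, 47710 with 475). Named are all members, the 2 other tested names of the locus with the highest mean CPM over all 4 libraries and the 3 names closest to miR-127-3p.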

Additional observations from a re-analysis of the deposited data

How the results depend on the processing

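Of the members, 3 rose and 2 fell; with no filter 5 rose and 0 fell, with total counts alone 0 fell, and 1 fell without names of several positions and without the miR-200 family and miR-183 cluster (miR-127-5p lost) and under the replicate block (miR-127-3p lost). Leaving out single libraries gave 2 to 4 rises and 0 to 2 falls among the members, and 47 to 94 rises and 43 to 106 falls among all names, against 79 and 78; the cause was not tested, but those fits have fewer libraries, and the lone library of a group is assumed to vary like the other group. MiR-431-3p turned to 0.077 with total counts alone and 0.106 with no filter. With no filter the median of all names shifted by 0.24. Replicate numbers 1 and 3 occur in both groups. The deviations of same-numbered libraries had a correlation of -0.0606 over 457 names, which cannot show whether those libraries were prepared together. With the replicate block 79 names rose and 85 fell, and miR-127-3p (-0.58, edgeR adjusted p = 0.0509) was not called. In the arm ratio fit the replicate block called 2 hairpins higher and 6 lower against 7 and 13, and 0 of the members' hairpins in either direction against 1 and 1 (miR-431 and miR-434, limma adjusted p = 0.0671 and 0.0672). Leaving out single libraries there gave 0 to 14 higher and 1 to 22 lower calls, with 0 to 2 higher and 0 to 1 lower among the members' hairpins. Leaving out single libraries, the arm ratio of miR-127, and with it the ratio of miR-127-5p to miR-127-3p, ran from -0.164 to 0.062 (0.061 without Control replicate 1, 0.062 without GFP-AGO2 replicate 1), and that of miR-433 from -0.062 (without Control replicate 1) to 1.927 (without Control replicate 3). In the fit of ratios to miR-127-3p, leaving out single libraries gave 88 to 112 higher and 10 to 54 lower calls against 160 and 53, with 4 or 5 of the members higher and 0 lower each time, and the replicate block called 5 members higher, miR-433-5p (2.25) being added. The members' share of all miRNA counts differed by 0.0598 to 0.351 points when single libraries were left out and by -0.591 without miR-200 and miR-183 counts in the denominator. Their share of the locus differed by -14.2 to -12.2 points when single libraries were left out and by 2.39 without miR-127-3p. Depth limits miR-431-5p and miR-433-5p, with 4 to 10 counts in each Control library.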
